A study of Mus musculus with 12 samples.

Results

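The potassium channel genes of mouse oocytes were taken by name, as every gene symbol that starts with Kcn followed by a small letter. The rule found 52 genes: 51 of the 22801 genes in the table of mature eggs and 12 of the 3475 genes in the table of immature oocytes, with 11 in both and Kcnj15 only in the immature one. The name covers pore-forming subunits, accessory subunits and 2 non-coding transcripts (Kcnq1ot1 and Kcnmb4os2), so not every member forms a channel. Kcnh3 was singled out by its known fall at metaphase II, and the 12 genes of the immature table were selected by the authors on the contrast between the genotypes. Their values on those contrasts are therefore a description, and the place of Kcnh3 in a count of calls is read as no evidence. Presence in control eggs was set by a mean of at least 10 normalized counts (reads divided by a scaling factor of the library) in the WT mature eggs, and it is likewise a description.

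RNA was sequenced from tubes of 15 pooled oocytes from the ovaries of C57BL/6 mice 35 days old. CKO oocytes had the genotype Lsm14bfl/fl-Gdf9-Cre, in which Cre is driven by the oocyte gene Gdf9. WT oocytes were Lsm14bfl/fl, so they carried the floxed alleles as well but no Cre. Both genotypes were taken as immature oocytes (germinal vesicle stage, GV) and as mature eggs (metaphase II, MII). Each of the 4 groups had 3 libraries, which the study's design calls biological replicates. Lsm14b encodes an RNA-binding protein, and its own level in CKO libraries averaged 6.26% of WT at GV and 8.22% at MII.

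Potassium channels let potassium leave a cell along its gradient and so help to set the membrane potential. Voltage-gated members open on depolarization, tandem-pore members carry a background current, and calcium- or sodium-activated members follow the ions inside the cell. Accessory subunits do not conduct and change how a pore opens or where it is placed. In oocytes and eggs the membrane potential bears on calcium entry and on cell volume.

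The sequence that all pore-forming members share is the selectivity filter, the stretch that lets potassium through and holds sodium back. It is shown here for the Kcnh genes present in control eggs and for 1 abundant member of each of 3 other classes, to show how Kcnh3 relates to the genes whose levels are set beside it below. Coordinates are those of GRCm38 (GENCODE M21 annotation), each sequence is the coding strand read 5′ to 3′, and capitals mark the codons for glycine, an aromatic residue and glycine at the core of the filter.
Kcnh3, chr15:99232923-99232949, plus strand: ctcaccagtgtgGGCTTCGGCaacgtg
Kcnh1, chr1:192337748-192337774, plus strand: ctcaccagtgtgGGCTTTGGTaacatt
Kcnh2, chr5:24325549-24325575, minus strand: ctcaccagcgtgGGCTTTGGCaatgtc
Kcnh5, chr12:75087460-75087486, minus strand: cttacaaccataGGATTTGGAaacata
Kcng4, chr8:119625904-119625930, minus strand: atgacgaccgtgGGCTATGGGgacatg
Kcnma1, chr14:23528407-23528433, minus strand: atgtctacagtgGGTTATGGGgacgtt
Kcnk18, chr19:59235421-59235447, plus strand: ctgaccaccatcGGGTTTGGGgacatc
The middle codon reads phenylalanine in the 4 Kcnh genes and in the Kcnk18 stretch, which is the later of the filters of that tandem-pore gene, and tyrosine in Kcng4 and Kcnma1. Over these 27 bases Kcnh1 and Kcnh2 each differ from Kcnh3 at 4 bases, Kcng4 at 10, Kcnh5 and Kcnk18 at 11, and Kcnma1 at 12.

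At MII the reads recovered from the values came to 23077585 to 40530314 per CKO library and 88494525 to 124872889 per WT library, so every WT library was deeper. WT replicate 3 stood apart at MII, with Spearman correlations of 0.834 to 0.885 with the other 5 libraries over all genes, against 0.907 to 0.965 among those 5. All 10 oocyte markers were measured at MII. Limma called none of them, and the authors' deposited table called 1 lower and 1 higher. The 11 measured cumulus and granulosa markers of 15 summed to 3213 to 4386 normalized counts in CKO eggs and 2639 to 5241 in WT eggs, with none at 0 throughout, and none was called. The total reads of the GV libraries are unknown because that table holds selected genes. Their recovered scaling factors were 1.05 to 1.29 in CKO libraries and 0.733 to 1.15 in WT libraries.

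Of the 51 genes measured at MII, 35 were present in WT eggs, and 31 of these also averaged at least 10 normalized counts in CKO eggs. By class, the present genes were 4 of 4 measured Kcnh genes, 3 of 4 Kcnq genes, 8 of 14 other voltage-gated subunits, 5 of 9 tandem-pore genes, 5 of 7 calcium- or sodium-activated genes, 1 of 2 inward rectifiers, 8 of 9 accessory subunits and 1 of 2 non-coding transcripts. These class sizes count measured genes only. The annotation used here holds 99 potassium channel symbols, so the shares are not shares of whole classes. Just inside the threshold lay Kcnn4 and Kcnk2, with WT means of 13.0 and 11.6 normalized counts. Just outside lay Kcna1, Kcnn1 and Kcnf1, at 7.98, 7.74 and 7.18. Kcnk2 was read in 1 WT library alone, and 10 of the 35 present genes had at least 1 WT library at 0. In the annotation used here, genes on the opposite strand cover 49.1% of the exon bases of Kcnj13 (Gigyf2) and 12.2% of Kcnk2 (A430027H14Rik). They also cover 8.01% of Kcnk1 (Gm45875), 5.99% of Kcnma1 (4930519K11Rik), and 4.63% and 2.73% of Kcnip4 (5730480H06Rik and Gm20700). Of Kcnn2 they cover 4.3% and 3.8% (AC121957.1 and A330093E20Rik). The strand setting of the counting is not stated, so reads of these pairs cannot be told apart. Not all overlaps of other members are listed.

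A few genes held nearly all of the normalized counts of the members, before any division by length. The 10 highest members made up 93.2% to 94.2% of the summed normalized counts of all members in CKO eggs and 94.0% to 95.1% in WT eggs. Per kilobase of exon, WT eggs held most of Kcnk18 at 2486 ± 1315 normalized counts per kb (SD, n = 3), a tandem-pore gene, followed by Kcnh1 at 2282 ± 1146 and Kcnmb3 at 2120 ± 594. These 3 neighbours lie within their spread of each other. Kcnq1 followed at 1311 ± 282 normalized counts per kb, Kcnk13 at 1191 ± 394 and Kcnh3 at 661 ± 269. Kcnq1 and Kcnk13 also lie within their spread of each other. Kcnh3 lay within its spread of the next gene, Kcng4, at 523 ± 228. It ranked 6 per length over the 3 WT libraries and 8 without WT replicate 3, at 509 normalized counts per kb against 640 for Kcng4. On the scale per length 79.6% of the genes present in WT eggs lay below Kcnh3.

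**Figure D1:**
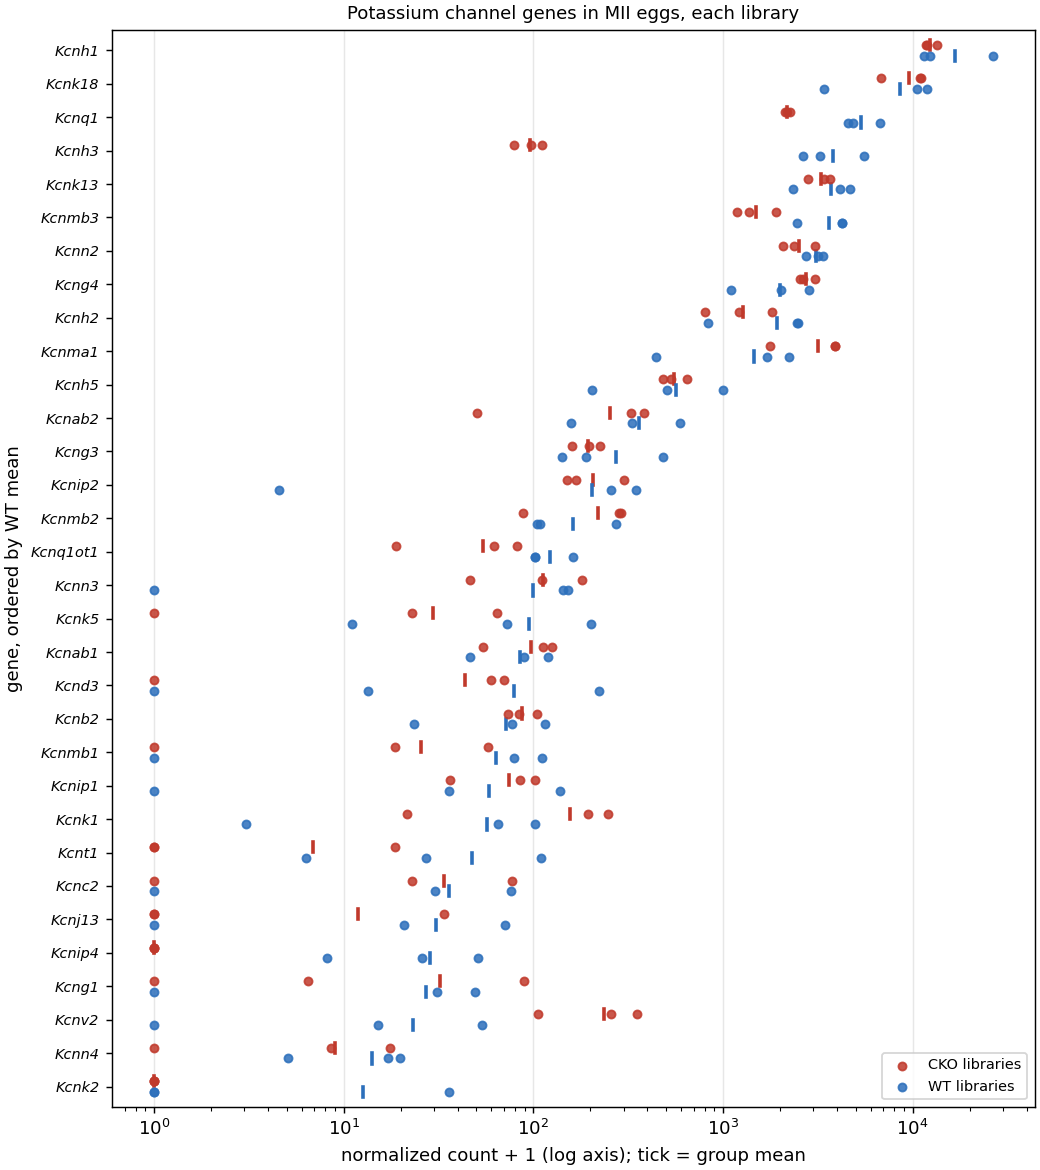
Normalized count + 1 on a log axis for 32 of the 35 potassium channel genes present in WT MII eggs, ordered by WT mean, with CKO libraries in red above WT libraries in blue and a tick at each group mean. Kcnh3 lies near 95 normalized counts in CKO eggs against 3806 in WT eggs, while most genes overlap between the genotypes.

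The Kcnh genes encode voltage-gated pore subunits of the ether-à-go-go family, and Kcnh3 is the member known from forebrain neurons of the mouse. Kcnh3 had 78.5, 96.2 and 110.2 normalized counts in the CKO eggs, against 2626, 3229 and 5562 in the WT eggs. Every CKO library lay far below every WT library, and the CKO values rested on 38 to 80 reads. The CKO mean was 95.0 ± 15.9 and the WT mean 3806 ± 1551 normalized counts (SD, n = 3 each), which leaves 2.50% of the WT level, a limma log2 difference of -5.25 (SE 0.43). Kcnh3 ranked 19 among the members by CKO mean and 4 by WT mean. In pooled oocytes, fewer cells of a type and less RNA per cell cannot be told apart.

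Kcnh1, the family's founding member and the highest of all members in summed reads, had 11721, 11885 and 13519 normalized counts in CKO eggs, against 11479, 12287 and 26419 in WT eggs. The groups overlapped, and WT replicate 3 was far above the rest. Its limma log2 difference was -0.33 (SE 0.35, adjusted p = 0.632, Benjamini-Hochberg over 20388 genes), and it turned positive, to 0.06, without that library. Kcnh2, the pore of the rapid delayed-rectifier current in heart, had 1806, 1213 and 799 normalized counts in CKO eggs, against 2486, 2464 and 833 in WT eggs. These overlapped too, with a log2 difference of -0.51 (SE 0.50, adjusted p = 0.629 by limma). Kcnh5 averaged 552 ± 81.9 normalized counts in CKO eggs and 567 ± 399 in WT eggs. Of the 4 family members measured, Kcnh3 was the one that did not overlap. The rule had singled it out for its fall, so nothing is read from that. Over all genes present in WT eggs, 15.5% lay wholly below.

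Kcnq1 encodes the pore of the slow delayed-rectifier current of heart and inner ear. It had 2115, 2264 and 2183 normalized counts in CKO eggs, against 6692, 4820 and 4588 in WT eggs. The CKO libraries were close to each other and all below the WT libraries, with 40.8% of the WT mean left. The log2 difference of -1.27 (SE 0.28) did not pass the limma threshold (adjusted p = 0.0612). It passed without WT replicate 3 (limma adjusted p = 0.0225) and did not with any other single library left out (limma adjusted p 0.166 to 0.227). Without WT replicate 3 limma called 551 genes lower and 437 higher over all genes, against 202 and 106 with all libraries. In the authors' deposited table the log2 fold change of Kcnq1 was -1.30 with an adjusted p of 1.28e-04.

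Kcnq1ot1, a long non-coding RNA read from the opposite strand within the Kcnq1 gene, had 81.2, 60.8 and 17.9 normalized counts in CKO eggs, against 100.8, 101.7 and 160.5 in WT eggs. All CKO values were lower, but the difference of -1.38 (SE 0.88, adjusted p = 0.480 by limma) did not pass. Exons of Kcnq1 and Kcnq1ot1 share 121 bases, 2.96% of the exon bases of Kcnq1, and the same limit holds for them.

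Among accessory subunits, Kcnmb3, which modifies the large-conductance calcium-activated (BK) channel, was the highest. It had 1371, 1896 and 1183 normalized counts in CKO eggs, against 4222, 4226 and 2461 in WT eggs. The groups did not overlap, and 40.8% of the WT mean was left. The log2 difference of -1.28 (SE 0.35) did not pass (limma adjusted p = 0.104). It passed without WT replicate 3 (limma adjusted p = 0.0251) and did not with any other single library left out (limma adjusted p 0.225 to 0.308). The authors' deposited table gave -1.29 with an adjusted p of 0.00824.

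The pore gene of that same channel had its means the other way round. Kcnma1 had 3881, 3902 and 1774 normalized counts in CKO eggs, against 2224, 1704 and 444 in WT eggs. The CKO libraries tended to lie higher but the groups overlapped, and the log2 difference of 1.33 (SE 0.59, adjusted p = 0.309 by limma) did not pass. It was 0.62 without WT replicate 3, the lowest library. The other BK subunits, Kcnmb2 and Kcnmb1, averaged 219 ± 114 and 24.7 ± 28.9 normalized counts in CKO eggs and 161 ± 95.5 and 62.9 ± 56.7 in WT eggs, with overlap in both.

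Kcnip4, a calcium-binding partner of A-type channels, was at 0 in every CKO library, against 24.8, 7.18 and 50.3 normalized counts in WT eggs. It was read 152 times over the WT libraries, and against a floor of 3 reads over the CKO group it was at least 17.6-fold lower. The limma adjusted p was 0.117, and in the authors' deposited table it was 0.0417. The related Kcnip2 and Kcnip1 averaged 205 ± 81.4 and 73.3 ± 33.8 normalized counts in CKO eggs and 203 ± 178 and 57.3 ± 71.2 in WT eggs. Kcnab2 and Kcnab1, cytoplasmic subunits of Kcna channels, averaged 253 ± 179 and 96.2 ± 37.8 in CKO eggs and 361 ± 219 and 84.0 ± 36.9 in WT eggs. All 4 overlapped between the genotypes.

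The tandem-pore genes showed no called difference. Kcnk18, the calcineurin-activated channel TRESK, had 11030, 10900 and 6851 normalized counts in CKO eggs, against 11920, 10539 and 3417 in WT eggs. The groups overlapped with WT replicate 3 lowest, and the log2 difference of 0.31 (SE 0.47, adjusted p = 0.726 by limma) became -0.26 without that library. Kcnk13, a halothane-inhibited background channel, had 3409, 2798 and 3645 normalized counts in CKO eggs, against 4121, 4674 and 2328 in WT eggs. It overlapped, with a log2 difference of -0.12 (SE 0.34, adjusted p = 0.865 by limma) that was 0.08 without WT replicate 2. Kcnk5, an alkaline-activated channel, and Kcnk1, a weakly conducting one, averaged 28.5 ± 32.2 and 154 ± 119 normalized counts in CKO eggs and 94.4 ± 97.7 and 55.8 ± 50.1 in WT eggs. The mechanosensitive Kcnk2 was at 0 in CKO eggs.

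Among the calcium-activated genes of small conductance, Kcnn2 had 2069, 2380 and 3068 normalized counts in CKO eggs, against 3354, 3176 and 2734 in WT eggs. These overlapped, with a log2 difference of -0.32 (SE 0.29, adjusted p = 0.628 by limma). Kcnn3 and Kcnn4 averaged 112 ± 67.5 and 8.04 ± 8.27 normalized counts in CKO eggs and 98.1 ± 85.1 and 13.0 ± 7.86 in WT eggs. The sodium-activated Kcnt1 averaged 5.91 ± 10.2 in CKO eggs and 46.6 ± 54.4 in WT eggs. All 4 genes overlapped.

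The remaining voltage-gated subunits were led by Kcng4, a silent subunit that modifies Kcnb pores. It had 2560, 3074 and 2635 normalized counts in CKO eggs, against 2842, 2027 and 1106 in WT eggs. The groups overlapped, with a log2 difference of 0.57 (SE 0.38, adjusted p = 0.499 by limma). Its pore partner Kcnb2 averaged only 86.5 ± 15.8 normalized counts in CKO eggs and 71.2 ± 46.1 in WT eggs, and the silent Kcng3 and Kcng1 averaged 193 ± 31.7 and 31.4 ± 49.6 in CKO eggs and 271 ± 186 and 26.2 ± 24.5 in WT eggs. The fast delayed-rectifier gene Kcnc2 averaged 32.7 ± 39.1 in CKO eggs and 34.9 ± 38.0 in WT eggs. The A-type gene Kcnd3 averaged 42.7 ± 37.3 in CKO eggs and 78.1 ± 125 in WT eggs, and the inward rectifier Kcnj13, read in 1 CKO library and 2 WT libraries, averaged 10.97 in CKO eggs and 29.8 in WT eggs. All of these overlapped.

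Kcnv2, another silent subunit, was the one present member that lay wholly higher in CKO eggs. It had 254.7, 349.4 and 104.7 normalized counts in CKO eggs, against 14.1, 0 and 52.8 in WT eggs. The fold is poorly fixed because 1 WT library was at 0. The log2 difference of 4.50 (SE 1.46) did not pass (limma adjusted p = 0.164), and in the authors' deposited table it was 3.40 with an adjusted p of 0.0846.

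**Figure D2:**
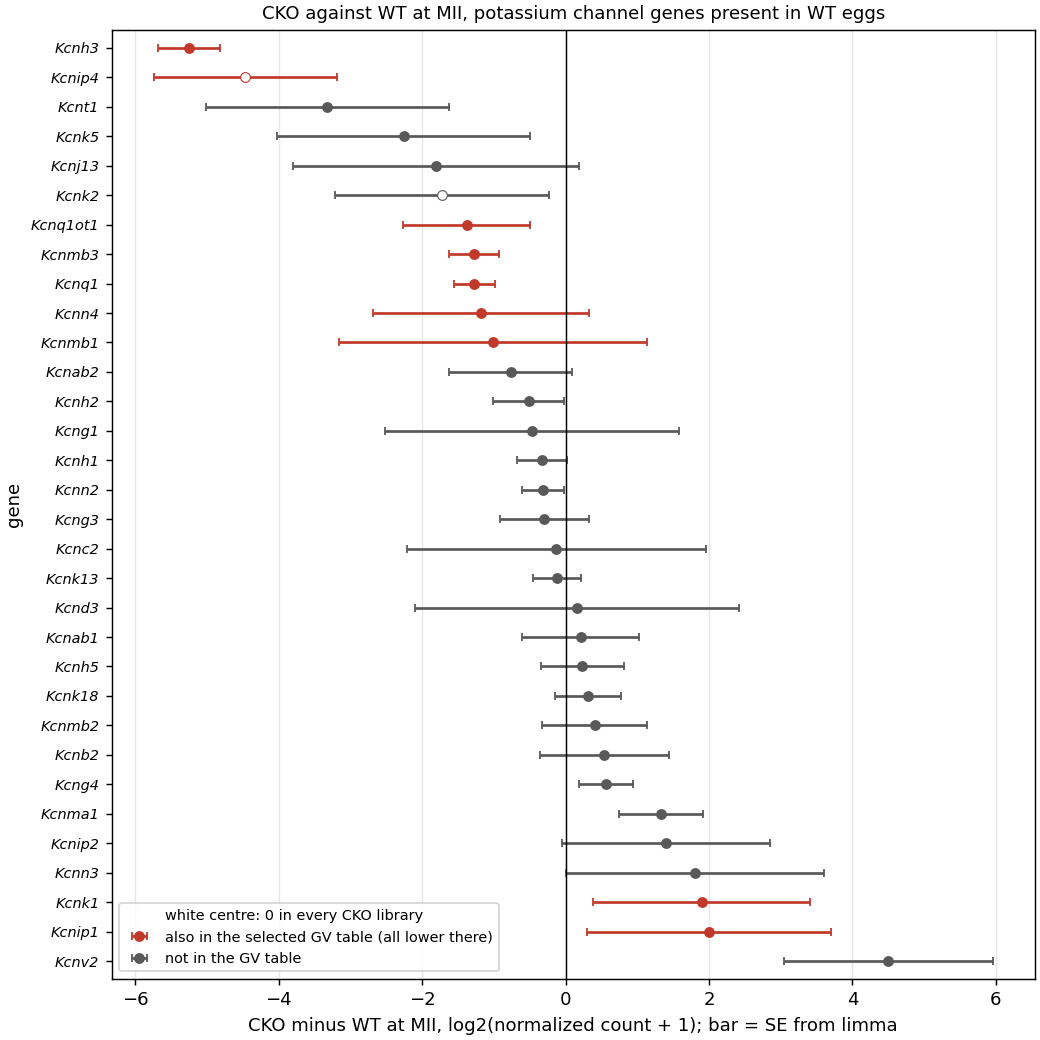
CKO minus WT log2 difference at MII from limma with its standard error, for 32 of the 35 potassium channel genes present in WT eggs, with genes of the selected GV table in red and white centres where every CKO library was at 0. Kcnh3 at -5.25 has a narrow bar, and the differences of genes with few reads have wide bars.

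Over all members, 49 passed the filter of a mean of at least 1 normalized count (Kcnk10 and Kcnmb4os2 did not). Limma called 1 of the 49 lower in CKO eggs, Kcnh3, which the rule had singled out, and none higher, with 6 members at an unadjusted p under 0.05, 4 lower and 2 higher. Over all genes tested it called 0.991% lower and 0.52% higher, and 15.985% had an unadjusted p under 0.05. By an adjusted p under 0.05 with a change of over 2-fold, the authors' deposited table called 4 of 38 members with a value lower (Kcnh3, Kcnq1, Kcnmb3 and Kcnip4) and none higher, against 6.45% lower and 4.1% higher over all genes. Of the 35 present genes, 5 lay wholly below WT (those 4 and Kcnq1ot1), 1 lay wholly above and 29 overlapped. Over all genes at that level 15.5% lay wholly below and 11.5% wholly above, so the share of members below, 14.3%, was near the background. The count of calls moved with single libraries, to 0 without WT replicate 2 and to 3 without WT replicate 3, which was the lowest WT library in 23 of the 35 present genes.

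The median log2 difference of the 35 present genes was -0.33, also with the 2 genes at 0 in CKO eggs set at their bound, beside -0.14 over all genes at that level and -0.11 over all genes tested. Of the 35, 22 were lower and 13 higher. Summed over all 51 members, normalized counts came to 42974, 43163 and 37950 in CKO eggs, against 55267, 52095 and 52440 in WT eggs. Without Kcnh3, Kcnq1 and Kcnmb3 the sums were 39409, 38907 and 34473 in CKO eggs, against 41727, 39820 and 39830 in WT eggs. Those 3 genes had already been seen to lie lower, so a narrower gap without them follows from the choice. Other members differed in their means in both directions and partly cancelled. Kcnh1 averaged 12375 in CKO eggs and 16729 in WT eggs, and Kcnma1 averaged 3186 in CKO eggs and 1457 in WT eggs.

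The 16 members under the threshold in WT eggs were read rarely, and those named here rest on 1 or 2 CKO libraries. Kcnc1, Kcnj16 and Kcnt2 averaged 25.2 ± 24.2, 25.7 ± 39.9 and 14.3 ± 24.9 normalized counts in CKO eggs, with at least 1 CKO library at 0 in each. In WT eggs Kcnc1 and Kcnj16 were at 0 in every library, and Kcnt2 was read 3 times in all. Against a floor of 3 reads over the WT group, Kcnc1 was at least 52.8-fold higher and Kcnj16 at least 53.7-fold higher in CKO eggs. CKO replicate 4 held 52 of the 56 reads of Kcnj16, and without it the bound was 6.32-fold. For Kcnc1 the bound was 31.6-fold without CKO replicate 2. All intervals and floors of this kind cover counting error only. Over the 51 genes, 10 were at 0 in every CKO library and 5 in every WT library, and the WT libraries were the deeper ones.

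At GV the table held 12 members, all lower in CKO oocytes. The table's genes had been selected by the authors on the same contrast, 60.3% of them were lower, and nothing is read from the count. Absence from that table means that a gene was not selected there. Of the 12, 9 had an adjusted p under 0.05 with over 2-fold in the authors' deposited table, and Kcnn4, Kcnk1 and Kcnip1 did not. By that rule 7.89% of the genes tested at GV were called lower, taking the 21462 genes that the adjusted p-values of the authors' deposited table imply.

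Kcnh3 had 375, 352 and 898 normalized counts in CKO GV oocytes, against 6195, 4981 and 6470 in WT GV oocytes. All 3 CKO libraries lay far below, at 9.21% of the WT mean, with CKO replicate 4 the highest of them. The authors' deposited table gave a log2 fold change of -3.44 (SE 0.35).

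Kcnq1 was the highest member of the GV table, with 4156, 4639 and 3627 normalized counts in CKO GV oocytes, against 10161, 7972 and 10542 in WT GV oocytes. Kcnmb3 had 1867, 1943 and 1129 in CKO GV oocytes, against 3662, 4247 and 4425 in WT GV oocytes. Neither overlapped, and 43.3% and 40.0% of the WT means were left. In the authors' deposited table their log2 fold changes were -1.21 (SE 0.17) and -1.32 (SE 0.24).

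Kcnq1ot1 had 139.1, 120.8 and 629.6 normalized counts in CKO GV oocytes, against 1749, 291 and 1341 in WT GV oocytes. It overlapped, with CKO replicate 4 high and WT replicate 2 low. Kcnk1, Kcnn4, Kcnip1 and Kcnip4 had WT means between 142 and 511 normalized counts and kept 30.4% to 47.5% of them in CKO oocytes, with no overlap. At GV 10 of the 12 members did not overlap. Among all genes that the authors selected at GV, 84.0% did not overlap, so nothing is read from the lack of overlap.

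Some low members are known from muscle, vessel or other somatic cells as well. Kcna5, a delayed rectifier known from heart and vascular smooth muscle, was at 0 in every CKO GV library, against 154.3, 35.5 and 44.7 normalized counts in WT GV oocytes. With 239 WT reads and a floor of 3 reads over the CKO group it was at least 104-fold lower. The inward rectifier Kcnj15 was also at 0 in every CKO library, against 0, 58.7 and 55.9 in WT oocytes, at least 38.4-fold lower. Kcnmb1, the BK subunit of smooth muscle, had 0, 6.97 and 8.59 normalized counts in CKO GV oocytes, against 11.3, 81.9 and 113 in WT GV oocytes. Of 11 theca, stroma and endothelium markers, 4 were in the GV table and all 4 were lower, summing to 127 to 372 in CKO GV oocytes and 963 to 2032 in WT GV oocytes, with none at 0 in every library. Of 8 blood and immune markers, 2 were in the GV table, summing to 1026 to 1129 in CKO and 1826 to 2162 in WT, with 1 lower and 1 higher. The part of these markers in the results on Kcna5, Kcnj15 and Kcnmb1 was not tested. At MII the 7 measured markers of the first list summed to 3957 to 4678 in CKO eggs and 3760 to 4838 in WT eggs, and the 3 measured of the second to 194 to 215 in CKO eggs and 1118 to 1925 in WT eggs. Limma called 1 marker of the second list lower at MII and none of the first. The authors' deposited table called 1 marker of each of these 2 lists lower at MII.

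**Figure D3:**
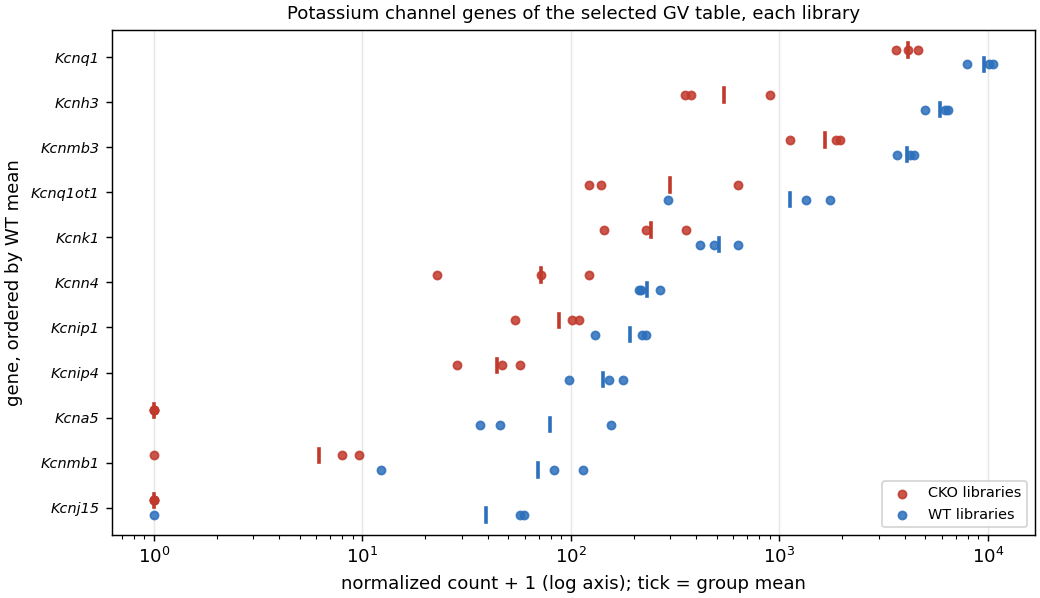
Normalized count + 1 on a log axis for 11 of the 12 potassium channel genes of the selected GV table, with CKO libraries in red above WT libraries in blue and a tick at each group mean. All group means plotted are lower in CKO oocytes, and Kcna5 and Kcnj15 are at 0 in all 3 CKO libraries.

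The 2 stages were normalized separately, so levels are not compared between them, but each gene's values can be set side by side. In the authors' deposited table Kcnq1 was -1.21 (SE 0.17) at GV and -1.30 (SE 0.28) at MII, and Kcnmb3 was -1.32 (SE 0.24) at GV and -1.29 (SE 0.37) at MII. Kcnh3 was -3.44 (SE 0.35) at GV and -5.33 (SE 0.42) at MII in the authors' deposited table. The difference between the stages was not tested.

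Kcnip1 and Kcnk1 were lower at GV and had means in the other direction at MII. In the authors' deposited table Kcnip1 was -1.14 (SE 0.55) at GV and 0.36 (SE 1.61) at MII, and Kcnk1 was -1.07 (SE 0.44) at GV and 1.47 (SE 1.29) at MII. Both overlapped at MII, and this difference was not tested either. Of the 11 members in both tables, 10 were present in WT MII eggs. Of these 10, 5 (50%) lay wholly below WT at MII, near the 45.7% of all genes lower in the GV table and present at MII. Of the 25 present members outside the GV table, none lay wholly below and 1, Kcnv2, lay wholly above. Over all genes outside the GV table at that level, 12.7% lay wholly below and 10.5% wholly above, and nothing particular to the members is read from these counts.

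**Figure D4:**
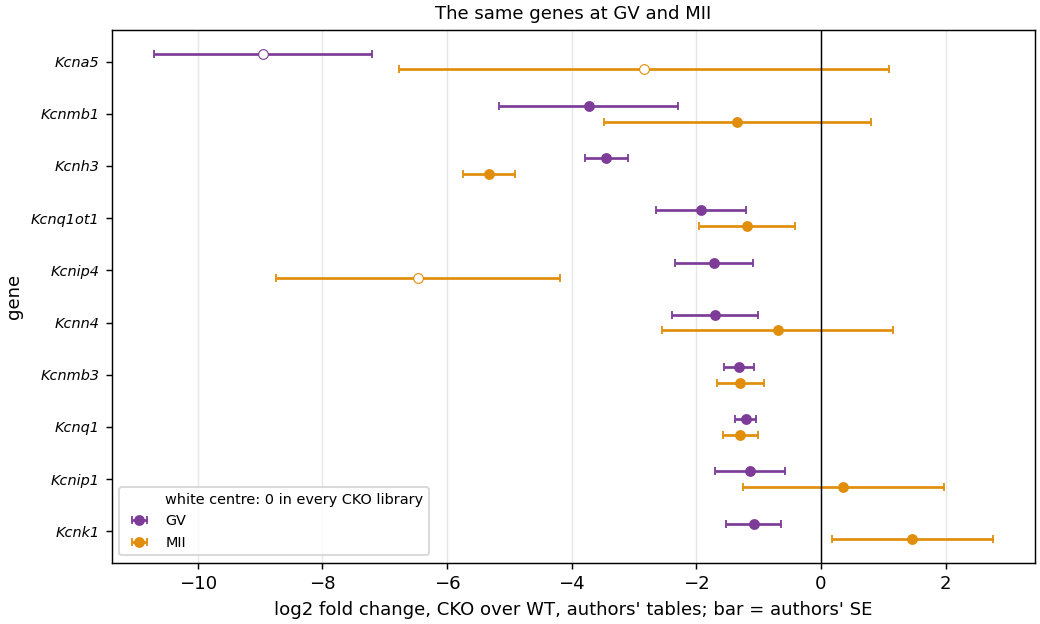
The authors' log2 fold change of CKO over WT with its standard error for 10 of the 11 potassium channel genes in both tables, at GV in purple above MII in orange, with white centres where every CKO library was at 0. Kcnq1 and Kcnmb3 lie near -1.3 at both stages, and Kcnh3 lies at -3.44 at GV and -5.33 at MII.

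Transcripts stored in oocytes are often controlled through short motifs near the 3′ end, where the hexamers AATAAA and ATTAAA direct cleavage and TTTTAT and TTTTAAT, written as DNA, are cytoplasmic polyadenylation elements. The last 100 bases of 1 annotated transcript per member were searched on the transcript strand only. A hexamer stood in 36 of 50 members (72%), beside 74.12% of 21764 transcripts, and an element in 5 of 50 (10%), beside 16.48%. Kcnh3 and Kcnq1 were 2 of those 5, and the 30 bases that begin with the element are shown, with the element and any whole ATTAAA in capitals.
Kcnh3, chr15:99242779-99242808, plus strand: TTTTATATTAAAaaacATTAAAaaaaaata
Kcnq1, chr7:143426974-143427003, plus strand: TTTTAATgaatttcgtagtatgatcttgat
The first begins 39 bases and the second 69 bases before the annotated end. The hexamer AATAAA of Kcnh3 begins 13 bases and that of Kcnq1 24 bases before the end, so neither is whole in the stretch shown. Kcnh1, which overlapped between the genotypes, also held TTTTAT, and Kcnmb3 held none of the 4 motifs in this window. A match is a description of the annotated end, and the ends used in these oocytes were not measured.

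Of 44 other genes of potassium transport (pumps, cotransporters, exchangers, related channels and their kinases), 29 were measured and 28 tested at MII. Their median limma log2 difference was -0.18, beside -0.11 over all genes tested.

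Not all called genes of this list are reported here. Among those reported, the authors' deposited table at MII called the chloride cotransporter Slc12a2 lower and the cation channel Hcn3 and the exchanger Slc24a2 higher. Limma called none of these 3 (adjusted p 0.179, 0.113 and 0.102). Hcn3 was near the floor in WT MII eggs, at 4.13, 0 and 0 normalized counts, against 117, 58.2 and 22.0 in CKO MII eggs. Slc24a2 was in the GV table too. It had 3284, 3654 and 3986 normalized counts in CKO GV oocytes, against 1679, 1318 and 1350 in WT GV oocytes, and 1819, 1656 and 1120 in CKO MII eggs, against 709, 574 and 319 in WT MII eggs. Its CKO libraries were above all WT libraries at both stages, and the authors' deposited table gave log2 fold changes of 1.33 at GV and 1.52 at MII. Wnk3, a kinase of cotransporters, was lower at GV in the authors' deposited table, at -1.12, and overlapped at MII.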

How the data were processed

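The authors deposited both tables on a log10 scale (of the normalized count + 1). Per the file headers, each also gave a mean signal, the log2 fold change, its SE, a score, the p-value and its adjusted value. Aligner, build and counting are not stated in the labels or headers. Normalized counts and whole reads were recovered (100% of values within 0.05 of a whole number). At MII, limma 3.58.1 in R 4.3.3 was run with a trend on log2(normalized count + 1) for genes with a mean of at least 1, with Benjamini-Hochberg adjustment over 20388 genes, and the procedure was tested on simulated data. At GV only the authors' deposited comparison was used. Exon lengths and sequences came from GENCODE M21. Members and lists were chosen with earlier results of these data known. Named are members present in WT eggs, in the GV table or called at MII, and called genes of the transport list, apart from some genes not reported here. Alternatives were the pseudocount, filters, scaling, limma-voom, thinned reads, library weights, a replicate block and each library left out. Scaling removes any change in total RNA per oocyte.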

Additional observations from a re-analysis of the deposited data

How the results depend on the processing

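With the main settings limma called 1 member at MII. The count was 6 with array weights (which down-weight libraries that stand apart), 0 with the replicate block and 0 to 3 when single libraries were left out. It was 1 with the pseudocount of 0.1, both other filters, library total scaling, limma-voom and thinned reads. The log2 difference of Kcnh3 ranged from -5.59 to -4.94 over all settings. The replicate numbers 2 and 3 are shared by both genotypes at MII. The block fits each replicate number, so its genotype difference rests on those libraries alone and little is left to estimate the spread. Its lack of calls and its turned directions are therefore not read as results. Libraries of the same number did not deviate together (correlations 0.0133 and -0.101). With so few libraries this cannot exclude that the numbers pair the samples. Over all genes limma called 202 lower and 106 higher, against 1893 and 1297 with array weights, 80 and 91 with limma-voom, none with the block, and 0 to 551 lower and 0 to 437 higher with single libraries left out. These results turned direction without passing the threshold: Kcna5 with limma-voom (0.0013), Kcnh2 and Kcnmb1 with the replicate block (0.047 and 1.88), and Kcnip1 and Kcnk18 with array weights (-0.43 and -0.11). With single libraries left out, the log2 difference ranged from -0.54 to 0.056 for Kcnh1, from -0.047 to 3.51 for Kcnip1, from -0.43 to 0.075 for Kcnk13, from -0.26 to 0.64 for Kcnk18, from -3.20 to 0.67 for Kcnmb1 and from -2.04 to 0.030 for Kcnn4. The cause was not tested. Of 264 recomputed differences, 244 kept direction and side of the threshold, 6 newly passed, 2 no longer passed and 12 turned. The recomputed differences cover only some of the tested members, so the turns listed above need not be all. The number of genes present in WT eggs was 41 and 32 with thresholds of 5 and 20, 36 with library total scaling and 33 to 37 with single libraries left out. The fewest reads per library stood in CKO eggs, where members at 0 are not shown to be absent. The levels per length without WT replicate 3 and the bounds of Kcnc1 and Kcnj16 without single CKO libraries were chosen after seeing the data.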
